A study of Mus musculus with 6 samples.

Results

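Pax5, Ebf1, Bach2, Irf4, Prdm1 and Xbp1 encode transcription factors that hold the B lineage in place or turn it towards antibody secretion, and their mRNA was followed here in single cells from inflamed mouse joints. The 6 genes were chosen by name, as rows of the deposited gene list, and are 6 of its 20394 genes. CD45+ cells, which the paper calls synovial, were sorted from digested joints of C57BL/6 mice with antigen-induced arthritis (AIA). From 6 samples, 3′ RNA-seq of single cells was made. The part of the joint that a cell came from is not labelled. Every mouse, controls included, had been immunised with 10 μg of methylated bovine serum albumin (mBSA) in complete Freund's adjuvant and challenged on day 21 with 100 μg of mBSA in the knee. From day 21, 2 samples received the vehicle PBS by the intraperitoneal route, and 4 received 300 μg of the peptide PEPITEM. The study's mice were males bought at the age of 8 weeks, and the joints were taken at the peak of inflammation on day 3. One table of whole UMI counts (unique molecular identifiers, which mark single RNA molecules) holds all 32953 cells, and the number from 1 to 6 at the end of a barcode is not tied to a sample by any source used here. Vehicle and PEPITEM were therefore not compared, and the 6 barcode numbers served as libraries of unknown treatment, described by their lowest, middle (median) and top values in place of a standard deviation.

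Ebf1 and Pax5 act early in B cell development, where Ebf1 opens the B cell programme and Pax5 keeps it by activating B cell genes and holding other lineages off. Bach2 represses the change into plasma cells, while Irf4 acts by its amount, with a role in the pre-B stage at lower levels and in plasma cells at higher ones. Prdm1 encodes Blimp-1, which shuts the B cell programme down in antibody-secreting cells, and Xbp1 widens the endoplasmic reticulum for secretion. Prdm1 and Xbp1 also work outside the lineage, in T cells, myeloid cells and dendritic cells.

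On mouse build GRCm38 (GENCODE vM21), Pax5 (ENSMUSG00000014030) lies on the minus strand at chr4:44524757-44710487 and Bach2 (ENSMUSG00000040270) on the plus strand at chr4:32238804-32586108. Ebf1 (ENSMUSG00000057098) is at chr11:44617317-45008091 and Xbp1 (ENSMUSG00000020484) at chr11:5520659-5525893, both on the plus strand. Irf4 (ENSMUSG00000021356) is at chr13:30749226-30766976 on the plus strand, and Prdm1 (ENSMUSG00000038151) at chr10:44437177-44528501 on the minus strand. The genes run from 5.24 kb for Xbp1 to 391 kb for Ebf1, and the sources used here do not say whether reads in introns were counted, so each gene was compared between groups of cells and not with another gene.

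The 250 bases before the RefSeq start (GRCm38.p6) are shown for 4 genes, because Pax5 and Bach2 were lower and Prdm1 and Xbp1 higher in antibody-secreting than in mature B cells. Capitals mark CCACG, the letters of the endoplasmic reticulum stress element that Xbp1 is known to bind, read on either strand. The windows are chr4:44710695-44710944 (minus strand) for Pax5, chr4:32417185-32417434 (plus) for Bach2, chr10:44458749-44458998 (minus) for Prdm1 and chr11:5520391-5520640 (plus) for Xbp1. The starts that RefSeq gives Prdm1 and Bach2 lie inside the longer GENCODE genes, so these windows are not at the 5′ ends of those genes.
Pax5: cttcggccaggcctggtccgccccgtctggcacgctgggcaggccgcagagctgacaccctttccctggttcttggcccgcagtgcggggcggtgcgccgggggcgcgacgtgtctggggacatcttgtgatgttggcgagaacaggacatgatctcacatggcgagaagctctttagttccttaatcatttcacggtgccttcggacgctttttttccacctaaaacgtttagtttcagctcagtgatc
Bach2: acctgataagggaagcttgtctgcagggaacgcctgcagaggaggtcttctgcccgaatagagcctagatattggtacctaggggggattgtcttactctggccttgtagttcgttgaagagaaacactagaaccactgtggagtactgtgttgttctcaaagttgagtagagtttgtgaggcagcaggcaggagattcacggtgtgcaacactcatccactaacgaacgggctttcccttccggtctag
Prdm1: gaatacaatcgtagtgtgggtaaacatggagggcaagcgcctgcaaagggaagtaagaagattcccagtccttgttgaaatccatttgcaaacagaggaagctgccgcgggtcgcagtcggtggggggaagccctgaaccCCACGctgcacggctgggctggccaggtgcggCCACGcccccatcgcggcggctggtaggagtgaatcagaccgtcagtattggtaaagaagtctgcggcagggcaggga
Xbp1: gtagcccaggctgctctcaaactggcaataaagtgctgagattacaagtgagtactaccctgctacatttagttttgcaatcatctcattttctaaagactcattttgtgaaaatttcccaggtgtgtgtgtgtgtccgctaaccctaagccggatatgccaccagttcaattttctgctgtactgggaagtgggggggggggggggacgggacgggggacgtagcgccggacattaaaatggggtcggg
Prdm1 held CCACG at 110 and 78 bases before its start, while the windows of Pax5, Bach2 and Xbp1 held none. Of the 7 windows of the 6 genes (Ebf1 has a pair of starts and is not shown), 3 held CCACG, with 3 matches in a window of Ebf1 and 1 in that of Irf4, and 28.3% of the 32851 promoter windows of this length held it. CCCNNGGG, the core that Ebf1 is known to bind, and TGAGTCA, which Bach2 is known to bind together with small Maf proteins, were in none of the 7 windows and in 11.8% and 4.46% of all windows. The paired interferon regulatory factor half-site (GAAA, any 2 bases, GAAA) was in 1 window, of Ebf1, and in 2.98% of all, TGACGT in none and 6.47%, CCAAT in 2 and 33.8%, and GGGCGG in 2 and 32.7%. Both strands were read, matches of different motifs can overlap, and a match or its absence describes these letters in these windows only.

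Cells were placed in stages by marker genes, none of which is one of the 6 factors. However, the markers Cd79a, Cd79b, Vpreb1, Vpreb3, Igll1, Cr2 and Fcer2a are known to be activated by Ebf1 or Pax5. The gates are therefore not independent of these factors. Jchain, Mzb1 and immunoglobulin genes, which define the antibody-secreting gate, belong to the secretion programme that Prdm1 and Xbp1 serve. That gate is thus not independent of the factors either, and its part in their levels there was not tested. At least 2 UMIs of Cd79a and Cd79b and fewer than 2 of 12 genes of other lineages were required throughout, except that antibody-secreting cells needed no Cd79. The pro-B gate asked for Dntt with Igll1 or Vpreb1 and held 545 cells, and the cycling pre-B gate for Mki67, Top2a and a pre-B gene without Dntt and held 332. The small pre-B gate asked for Rag1 or Rag2 outside the cycle (871 cells), the immature B gate for Ms4a1 with Cd93 (178 cells), and the mature B gate for Ms4a1 with Ighd, Fcer2a or Cr2 (1246 cells). The immature and mature B gates also excluded Mki67 and Top2a, which the antibody-secreting gate did not. The antibody-secreting gate asked for at least 3 UMIs each of Jchain and Mzb1 with at least 3% of UMIs from immunoglobulin constant genes, and held 37 cells. It also excluded cells with Vpreb1, Igll1, Dntt, Rag1 or Siglech. These stages and 2608 other Cd79-positive cells made up the B lineage, 5817 cells or 17.7% of all cells, and marker genes placed 22483 cells in 16 other classes.

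The libraries held 2919 to 9345 cells and 47273569 to 123367661 UMIs. The B lineage took 11.1% to 35.2% of a library, and pro-B and pre-B cells took 32.2% to 69.7% of the staged cells. The median cell had 8564 UMIs in the pro-B gate, 13664 in cycling pre-B, 4956 in small pre-B, 5147 in immature B, 5704 in mature B and 31294 in the antibody-secreting gate. Libraries shared 138 barcode sequences, and 23 of the staged cells carried such a barcode.

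The antibody-secreting cells were unevenly spread, with 4, 0, 0, 2, 16 and 15 cells in libraries 1 to 6. All 37 held Jchain, by the gate's own rule, and Igkc, which counted towards that rule. Outside the rule, 86.5% held Sdc1, which encodes the plasma cell surface protein CD138, and 32.4% held Mki67, a gene of dividing cells. Mature B cells held no Mki67 by their own gate, and the part of the cell cycle in the ratios between these gates was not tested. The leading heavy chain was Ighm in 23 cells, Igha in 10 and Ighg2b in 4, and immunoglobulin genes took 8.85% to 63.7% of the UMIs of a cell (median 41.1%). Granulocyte RNA was found in this gate, and in other B lineage gates too. Pooled, S100a8 was at 16754 CPM (UMIs per 1000000 UMIs of the gate) against 5976 in mature B cells. Libraries with at least 10 cells overlapped, at 7869 to 34562 CPM against 345 to 9430 CPM. Immature B cells were at 8243 CPM, with a highest library at 21164 CPM. Of the 37 antibody-secreting cells, 17 held one of the 12 genes of other lineages. The summed level of these 12 genes was 73.5 CPM in antibody-secreting cells, at 75.6 and 98.4 CPM in the 2 libraries with at least 10 such cells, and 40.3 CPM in mature B cells, at 18.3 to 55.5 CPM in a library. Of the 12, Cd3e, Cd3g, Nkg7, Siglech, Cd209a, Ms4a2, Col1a1, Klrb1c and Adgre1 were at 0 in the antibody-secreting gate, Siglech by the gate's own rule. The part of these cells in the results below was not tested, but the ratios were recomputed in the 18 antibody-secreting cells with none of the 12 genes and under 0.5% of UMIs from S100a8 and S100a9.

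**Figure D1:**
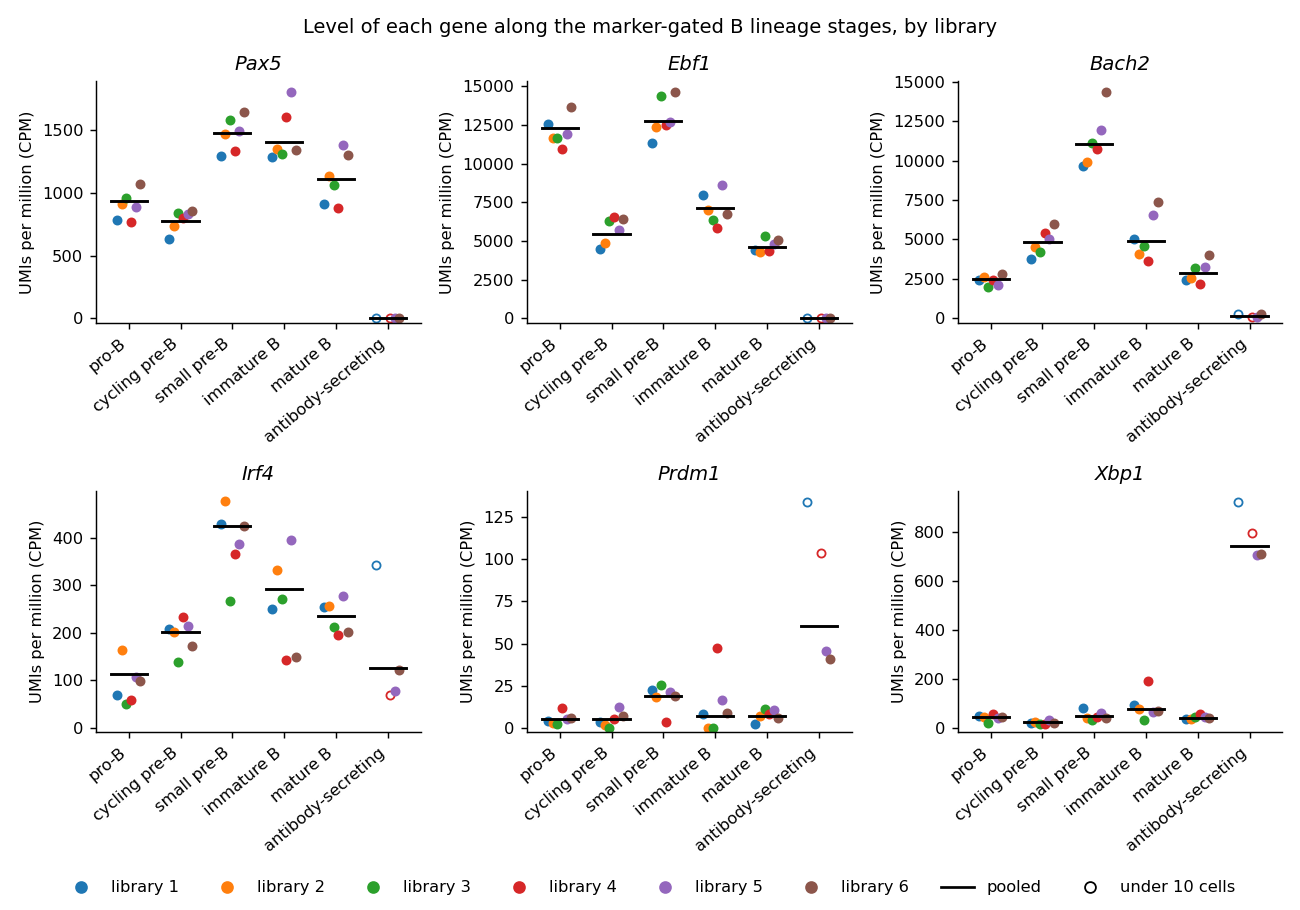
Level of the 6 genes (CPM, linear axes that differ between panels) in 6 marker-gated stages. Points are libraries, open where under 10 cells were in the gate, and black lines are the pooled levels. Pax5 and Ebf1 sit at or near 0 in antibody-secreting cells. By pooled level, Bach2 and Irf4 are highest in small pre-B cells, and Prdm1 and Xbp1 in antibody-secreting cells.

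Pax5, which keeps B cells committed, was detected at every stage up to the mature B cell and in none of the antibody-secreting cells. Its lowest, median and highest library were at 769, 897 and 1069.6 CPM in pro-B cells, at 628, 814 and 856 CPM in cycling pre-B cells and at 1297, 1480.3 and 1646 CPM in small pre-B cells. In immature B cells they were at 1285, 1346 and 1801 CPM, and in mature B cells at 879, 1099.7 and 1377 CPM. The small pre-B libraries all lay above all pro-B and cycling pre-B libraries, while neighbours in the order small pre-B, immature B, mature B, pro-B and cycling pre-B overlapped in their libraries. Pooled, Pax5 was at 1478 CPM in small pre-B cells (exact Poisson 95% limits 1443 to 1513) and at 938 CPM in pro-B cells (914 to 963), a 1.58-fold difference with the same direction in 6 of 6 libraries. As UMIs per cell, which follow depth, the order was the opposite, with 7.89 in a small pre-B and 10.4 in a pro-B cell. These limits cover counting error only, here and below.

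Antibody-secreting cells gave 0 UMIs of Pax5 in 1128965 UMIs, against 8630 UMIs or 1114 CPM in mature B cells. With the 0 set to 3 UMIs over the gate, Pax5 was 419-fold lower, a log2 ratio of -8.71 that served as a bound. The exact Poisson upper limit of the 0 was 3.27 CPM, which is more than those 3 UMIs and allows a smaller fold. The bound follows the number of UMIs in the gate, and was at -7.90 without library 6, -8.01 without library 5 and -7.52 in the 18 cells of the stricter gate. In the 49 cells found with no limit on genes of other lineages the log2 ratio was -6.03. None of the 37 cells held a UMI (exact binomial upper limit 9.49%), whereas 98.4% of mature B cells did, at a median depth that was lower.

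Ebf1, which starts the B cell programme, fell into a high and a lower range within the lineage on the CPM scale. Its lowest, median and highest library were at 10926, 11808 and 13654 CPM in pro-B cells and at 11366, 12591 and 14618 CPM in small pre-B cells. They were at 4454, 6022 and 6558 CPM in cycling pre-B cells, at 5849, 6883 and 8609 CPM in immature B cells and at 4297, 4608 and 5337 CPM in mature B cells. No library of the pro-B or small pre-B gate overlapped with any library of the other 3 gates. As UMIs per cell these ranges were not kept, with 136 in a pro-B, 89.8 in a cycling pre-B and 68.2 in a small pre-B cell. An immature B cell held 41.6 and a mature B cell 28.8. The pooled level in mature B cells, 4632 CPM, was 2.76-fold lower than in small pre-B cells, at 12778 CPM (limits of the fold 2.72 to 2.80), and 2.65-fold lower than in pro-B cells, at 12287 CPM.

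In the antibody-secreting gate Ebf1 was at 37.3 CPM in library 1, 0 in libraries 4 and 5 and 10.8 CPM in library 6. Its 10 UMIs came from 2 of the 37 cells, and the pooled 8.86 CPM was 523-fold lower than in mature B cells (284 to 1091). Without library 1, whose 4 cells gave 5 of the 10 UMIs, the log2 ratio was -9.86 in place of -9.03, and without library 5 it was -8.36. In the 18 cells of the stricter gate it was -7.84, and in the 49 cells with no limit on other lineages -5.04.

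Bach2, which represses Prdm1 and delays the plasma cell programme, was highest in small pre-B cells on the CPM scale. Its lowest, median and highest library were at 1988, 2443 and 2779 CPM in pro-B cells, at 3769.6, 4781 and 5993 CPM in cycling pre-B cells and at 9657, 10918 and 14341 CPM in small pre-B cells. They then stood at 3630.0, 4798 and 7365 CPM in immature B cells and at 2182, 2867 and 3985 CPM in mature B cells. The lowest small pre-B library was above the highest library of every other stage, and pro-B and mature B libraries overlapped. Pooled, Bach2 was 4.41-fold higher in small pre-B than in pro-B cells (4.33 to 4.49) and 3.84-fold lower in mature B than in small pre-B cells (3.78 to 3.91), each in 6 of 6 libraries. As UMIs per cell the order of the pre-B gates was the opposite, with 59.1 in a small and 79.8 in a cycling pre-B cell.

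Antibody-secreting cells held Bach2 at 276 CPM in library 1, 77.8 CPM in library 4, 69.6 CPM in library 5 and 262 CPM in library 6. All 4 values were below the lowest library of mature B cells, and the pooled 174 CPM was 16.6-fold lower than the 2881 CPM of mature B cells (14.4 to 19.2). Unlike Pax5, Bach2 was still found in 29 of the 37 cells, at 5.30 UMIs per cell against 17.9 in mature B cells. With no limit on other lineages the log2 ratio was -3.29 in place of -4.05, and as the median over libraries -4.73.

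Irf4, whose dose is known to matter at the pre-B and plasma cell stages, was also highest in small pre-B cells on the CPM scale. As UMIs per cell it was at 2.27 there, 3.34 in cycling pre-B cells and 3.84 in antibody-secreting cells. Its lowest, median and highest library were at 50.3, 84.3 and 164 CPM in pro-B cells, at 138, 205 and 233 CPM in cycling pre-B cells and at 267, 407 and 478 CPM in small pre-B cells. They were at 143, 261 and 395 CPM in immature B cells and at 196, 233 and 278 CPM in mature B cells. Small pre-B libraries did not overlap with pro-B libraries, and mature B libraries did not either. The pooled level was 3.75-fold higher in small pre-B than in pro-B cells (3.44 to 4.10) and 2.08-fold higher in mature B than in pro-B cells (1.91 to 2.28), each in 6 of 6 libraries. From small pre-B to mature B cells it was 1.80-fold lower (1.69 to 1.92), again in 6 of 6.

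For Irf4 in antibody-secreting cells the direction depended on the scale. Scaled to CPM it was at 343 CPM in library 1, 69.2 CPM in library 4, 76.8 CPM in library 5 and 121 CPM in library 6, and the pooled 126 CPM was 1.88-fold lower than the 236 CPM of mature B cells (1.58 to 2.25). Per cell it was higher, with 3.84 UMIs in an antibody-secreting cell against 1.47 in a mature B cell, a log2 ratio of 1.38 where the scaled ratio was -0.91. Library 1 supplied 46 of the 142 UMIs from 4 cells, and without it the scaled log2 ratio was -1.27. With immunoglobulin genes left out of the denominator, which raises every gene of this comparison by 0.66 on the log2 scale, it was -0.25.

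Prdm1, which encodes Blimp-1, gave few UMIs in B cells and was higher in antibody-secreting cells. Its lowest, median and highest library were at 2.39, 4.55 and 12.02 CPM in pro-B cells, at 0, 4.37 and 12.4 CPM in cycling pre-B cells and at 3.28, 19.9 and 25.6 CPM in small pre-B cells. They were at 0, 8.57 and 47.6 CPM in immature B cells and at 2.38, 7.36 and 11.4 CPM in mature B cells. The ranges of these 5 stages overlapped, although 88 UMIs in small pre-B cells gave a pooled 18.9 CPM (15.2 to 23.3) against 4.98 CPM from 30 UMIs in pro-B cells (3.36 to 7.11), higher in 5 of 6 libraries.

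In the antibody-secreting gate Prdm1 was at 134 CPM in library 1, 104 CPM in library 4, 45.6 CPM in library 5 and 41.1 CPM in library 6, all above the highest mature B library. The highest immature B library, library 4 with 11 cells, was at 47.6 CPM and so above libraries 5 and 6 of this gate. The 68 UMIs came from 21 of the 37 cells, with at most 12 in a cell, and the pooled 60.2 CPM was 8.64-fold higher than the 6.97 CPM of mature B cells (5.96 to 12.6). Per cell, 1.84 UMIs stood against 0.0433. As the median over libraries the log2 ratio was 2.46 in place of 3.11.

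Xbp1, a regulator of the secretory apparatus, stayed low through development. Its lowest, median and highest library were at 19.2, 43.8 and 58.1 CPM in pro-B cells, at 15.9, 20.4 and 33.5 CPM in cycling pre-B cells and at 32.9, 43.8 and 80.8 CPM in small pre-B cells. They were at 32.04, 72.5 and 190.2 CPM in immature B cells and at 36.5, 41.4 and 57.3 CPM in mature B cells. Each stage overlapped with the next in development, although all cycling pre-B libraries were below all mature B libraries, and the pooled level did not differ between mature B cells (40.9 CPM) and pro-B cells (42.7 CPM) beyond counting error, with log2 limits of -0.30 to 0.18.

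Antibody-secreting cells held Xbp1 at 924 CPM in library 1, 795 CPM in library 4, 706 CPM in library 5 and 709 CPM in library 6. Every one of the 37 cells had at least 2 UMIs, with a median of 20 and a highest value of 61. The pooled 742 CPM was 18.1-fold higher than in mature B cells (15.9 to 20.7), and the lowest of the 4 libraries lay far above the highest mature B library. Per cell, 22.6 UMIs stood against 0.254. The 3′ counts do not tell the spliced from the unspliced Xbp1 mRNA.

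The calls of the 6 factors were read against those of all genes. A gene was called when its pooled level differed at least 2-fold in the same direction in every library with at least 10 cells of both gates, among 13627 genes with at least 200 UMIs in the gated cells, and no test was run. Between pro-B and small pre-B cells, Bach2 and Irf4 were called higher and none of the 6 lower, where 5.03% of all genes were called higher and 11.0% lower. Between small pre-B and mature B cells, Ebf1 and Bach2 were called lower and none higher, against 5.04% and 5.74% of all genes. From pro-B to mature B cells, Irf4 was called higher and Ebf1 lower, against 6.82% and 12.4%. From mature B to antibody-secreting cells, Prdm1 and Xbp1 were called higher, where 5.67% of all genes were, and Pax5, Ebf1 and Bach2 lower, where 36.2% were. This comparison rested on libraries 5 and 6, and the median of all genes was itself at a log2 ratio of -0.86, close to the -0.91 of Irf4.

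**Figure D2:**
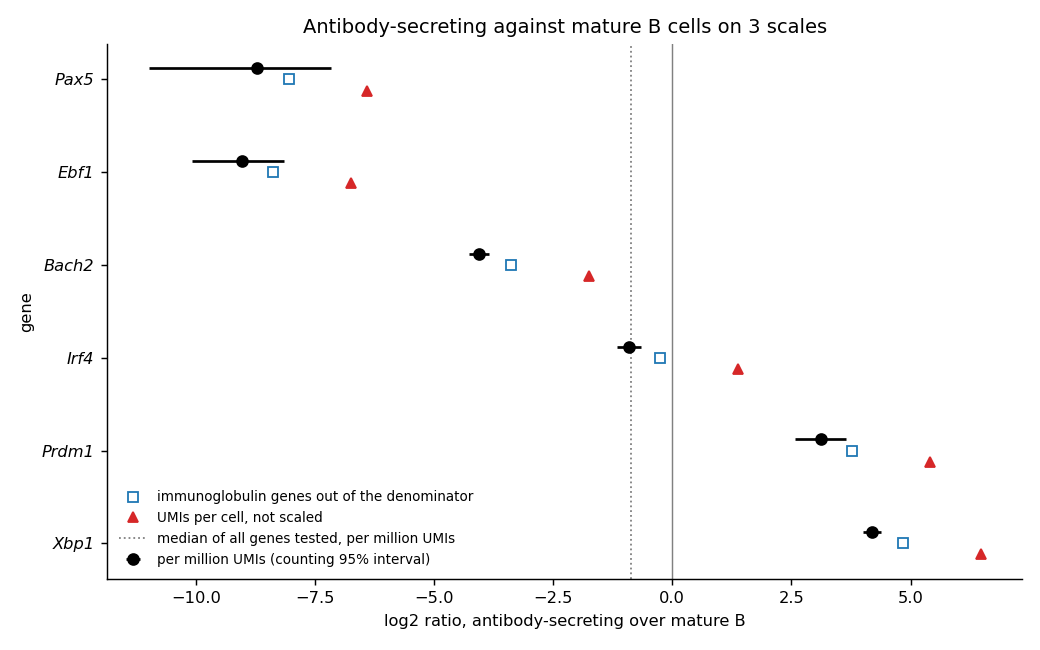
Log2 ratio of each gene in antibody-secreting over mature B cells, pooled over all libraries, as CPM (black, with 95% counting limits), as CPM without immunoglobulin genes in the denominator (blue) and as UMIs per cell (red). Pax5, Ebf1 and Bach2 are below 0 and Prdm1 and Xbp1 above 0 on the 3 scales, while Irf4 lies at -0.91 in CPM and at 1.38 per cell. The value of Pax5 is a bound with its 0 set to 3 UMIs, and its black limits treat those 3 UMIs as counted.

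Because depth differed between the gates, each cell was also thinned, in 1 random draw, to 3000 UMIs and shallower cells were left out, 6 of 545 in the pro-B gate, 37 of 871 in the small pre-B gate, 23 of 1246 in the mature B gate and none of the 37 antibody-secreting cells. Thinning evens total UMIs only. Immunoglobulin genes took 37.4% of the pooled UMIs of antibody-secreting cells and 1.17% of those of mature B cells. Thinned antibody-secreting cells thus kept fewer UMIs of other genes, and the part of this in the shares was not tested. T cells, which are known to lack Pax5 and Ebf1, gave the background for both. Thinned, Pax5 was found in 91.3% of mature B cells, 0% of antibody-secreting cells (exact binomial limits 0 to 9.49) and 0.864% of T cells. Unthinned, these shares were 98.4%, 0% and 1.27%, at median depths of 5704, 31294 and 9503 UMIs. Ebf1 was found in 99.4% of thinned mature B cells and 1.51% of thinned T cells. The 2.70% of thinned antibody-secreting cells was 1 cell, with limits of 0.0684 to 14.2 that include this T cell share. Unthinned, the shares of Ebf1 were 99.8%, 1.70% and 5.41%, the last with limits of 0.661 to 18.2 and at a greater depth. Of the T cells, 17 carried at least 2 Cd79 UMIs. Without those 17, the unthinned T cell shares were 0.216% for Pax5 and 0.541% for Ebf1, so this background held cells with B lineage RNA.

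The share of Irf4 changed its order with thinning, and the parts of depth and of immunoglobulin RNA in this were not told apart. Unthinned it was found in 64.9% of antibody-secreting and 50.3% of mature B cells, and thinned in 16.2% (6.19 to 32.01) and 36.3% (33.6 to 39.1), or 24.7% and 37.1% as the mean over all possible draws, with 0.633% of thinned neutrophils (1.83% unthinned, median depth 7684) as a background. Among B cells, thinned Irf4 was found in 60.3% of small pre-B cells and 23.9% of pro-B cells, which were at 70.6% and 45.3% unthinned. Bach2 was left in 43.2% of thinned antibody-secreting cells (34.2% as the mean over all draws, 78.4% unthinned) and in 97.7% of mature B cells (98.8%), against 2.33% of neutrophils (4.202%). Prdm1 was found in 18.9% of thinned antibody-secreting cells (7.96 to 35.2), 2.13% of mature B cells and 1.74% of neutrophils, and unthinned in 56.8%, 3.45% and 4.05%. This share depended on the draw: the mean over all draws was 14.3% of antibody-secreting and 1.97% of mature B cells at 3000 UMIs, and at 2000 UMIs the draw gave 0% of antibody-secreting and 1.13% of mature B cells where the means were 10.04% and 1.32%. Its thinned mean in mature B cells, 0.0229 UMIs, and in neutrophils, 0.0211 UMIs, are too near to a lone UMI to be read as a difference. Xbp1 kept 78.4% of antibody-secreting cells (61.8 to 90.2) against 11.5% of mature B cells, and unthinned it was in 100% and 18.3%. Neutrophils held Xbp1 in 8.66% of thinned cells, below the share of mature B cells, and in 24.5% of all cells, above it. The order of these classes thus depended on thinning, and the mature B share was near that of another lineage.

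**Figure D3:**
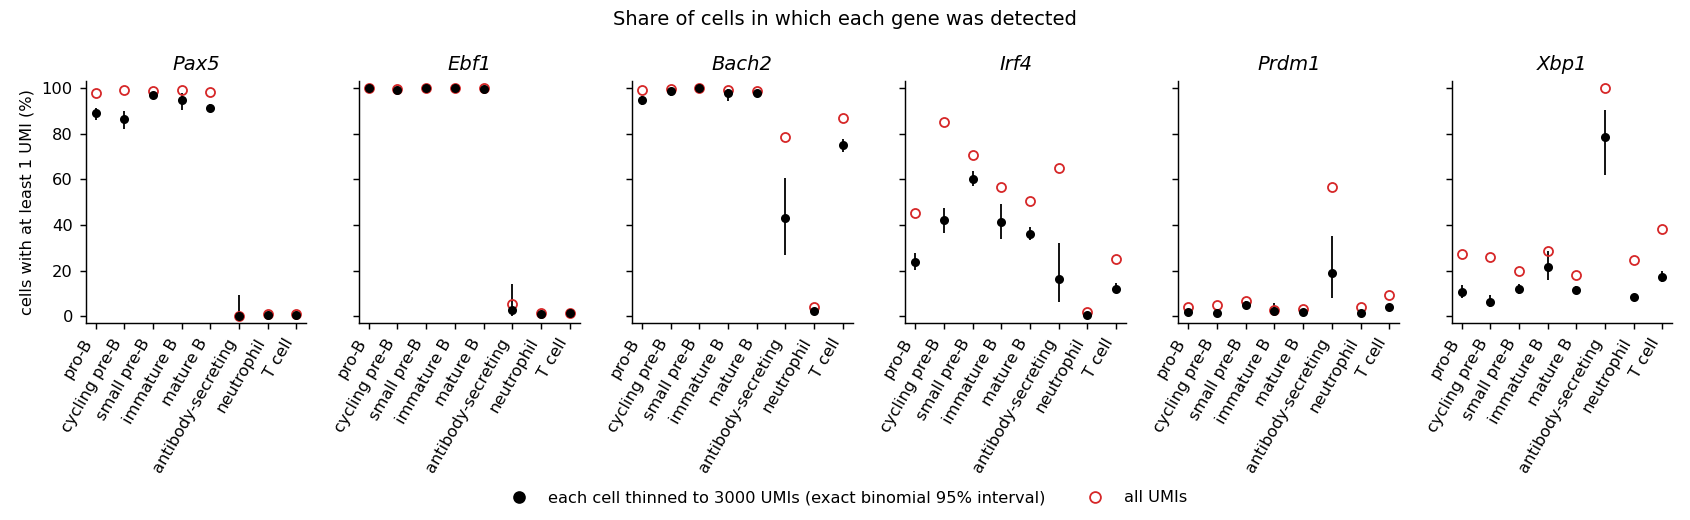
Percent of cells with at least 1 UMI of each gene in the 6 stages, neutrophils and T cells, after thinning to 3000 UMIs (black, exact binomial 95% limits) and with all UMIs (red circles). For Irf4 the antibody-secreting gate moves from 64.9% to 16.2% in this draw, below the 36.3% of mature B cells, while Xbp1 stays at 78.4%. As the mean over all draws, these Irf4 shares were 24.7% and 37.1%.

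Detection of Prdm1 beside the other factors says little outside the antibody-secreting gate, because few mature B cells (3.45%) held a UMI. The share was 4.05% in neutrophils, a myeloid class, and 1.40% in the deeper granulocyte precursors, so likeness to neutrophils does not make the mature B share a background. Of 43 mature B cells with Prdm1, 42 held Pax5 (97.7%), as did 98.4% of the other mature B cells. No antibody-secreting cell held Pax5, with or without Prdm1, and all held Xbp1. The 21 antibody-secreting cells with Prdm1 were deeper, with a median of 36282 UMIs against 26215 in the other 16. Of the 24 antibody-secreting cells with Irf4, 15 held Prdm1 (62.5%, against 46.2% of the cells without it), and those 24 were deeper too, with a median of 33468 against 26130 UMIs.

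Within a gate, levels differed with the cell cycle and with Ms4a1, the gene of the mature B cell marker CD20. The 152 pro-B cells with both Mki67 and Top2a held Ebf1 at 9236 CPM and Bach2 at 1944 CPM, and the other 393 pro-B cells held them at 14972 and 3012 CPM. As CPM, both were lower in the cycling cells in each of the 4 libraries with enough cells, where the median depth was 17850 UMIs against 7250 in the others. UMIs per cell, which follow depth, were not compared for this split and can go the other way. Pax5 was lower in the cycling cells in all 4 as well, at 871 CPM (837 to 906) against 997 CPM (963 to 1032). In small pre-B cells with Ms4a1 (159 cells), Bach2 was at 9013 CPM and Ebf1 at 10993 CPM, against 11535 and 13173 CPM in the 712 cells without it, lower in 4 of 4 libraries. Pax5 went the other way, at 1590 CPM (1506 to 1677) with Ms4a1 and 1453 CPM (1415 to 1492) without it, higher in 3 of 4. Irf4 was lower in all 4 as well, at 388 against 434 CPM, with limits that overlap (347 to 432 and 414 to 456).

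The genes around the 6 factors were described by 3 lists, named with earlier results of these data known. Calls and medians of these lists are on the CPM scale. As UMIs per cell, every log2 ratio of antibody-secreting over mature B cells is higher by as much as that of Irf4. That of Irf4 went from -0.91 in CPM to 1.38 per cell, so a gene called lower here can be higher per cell. Of 23 other B lineage factors and partners, 19 were called lower and none higher in antibody-secreting than in mature B cells, with a median log2 ratio of -2.27, where 36.2% of all genes were called lower, 5.67% higher and the median was -0.86. Spib, an Ets factor of B cells and plasmacytoid dendritic cells, fell from 321 CPM to 0 UMIs, 121-fold with the 0 set to 3 UMIs. Bcl11a fell from 283 to 4.43 CPM. Ikzf3, which encodes Aiolos, was at 866 against 134 CPM, and Bcl6, the germinal centre repressor, at 65.7 against 21.3 CPM. Pou2af1, the B cell coactivator that plasma cells also use, was at 409 against 228 CPM and was not called.

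Of 17 genes known to be activated by Pax5 or Ebf1, 14 were called lower and none higher at this step, and 9 of the 10 that no gate had used, with a median log2 ratio of -3.43 among those 10, against the same 36.2% of all genes. Bank1, an adaptor of B cell receptor signalling, was at 2287 CPM in mature B cells against 42.5 CPM in antibody-secreting cells, and Cd22, an inhibitory receptor, at 173 CPM against 0 UMIs. Igll1 and Vpreb1, at 1 and 7 UMIs in mature B cells, were at 0 in antibody-secreting cells by the gate's own rule and gave no ratio.

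Of 26 genes of the unfolded protein response and secretion, 20 were called higher and none lower, with a median log2 ratio of 2.17, against 5.67% and 36.2% of all genes. Creld2, a chaperone of this response, was at 283 CPM in antibody-secreting cells against 13.7 CPM in mature B cells. Sdf2l1, a partner of the chaperone BiP, was at 272 against 18.7 CPM, and Ssr4, a subunit of the translocon complex, at 1285 against 106 CPM. Ern1, which encodes the sensor IRE1 that splices Xbp1 mRNA, was at 118 against 25.03 CPM. Atf4 and Ddit3, which belong to the PERK arm, were at 140.0 against 138 CPM and 57.6 against 89.2 CPM. They were among the 6 genes of this list that were not called, and were named after their values were seen. The arms were not compared. From pro-B to small pre-B cells, 5 of the 26 were called higher and 2 lower, where 5.03% and 11.0% of all genes were, and from small pre-B to mature B cells 1 was higher and 2 lower, near the 5.74% and 5.04% of all genes. These calls needed 6 libraries and those in antibody-secreting cells 2, so the counts were not compared between steps. Of the 23 other B lineage factors, 6 were called higher and 4 lower from pro-B to small pre-B cells, where Ikzf3 was 13.9-fold higher and Erg, an Ets factor of progenitors, 19.2-fold lower.

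**Figure D4:**
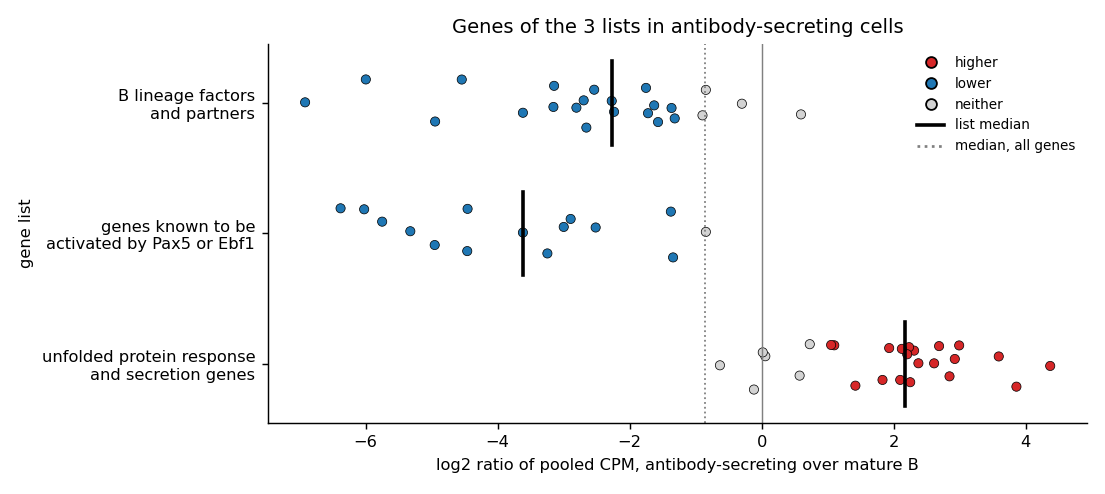
Log2 ratio of pooled CPM in antibody-secreting over mature B cells for the genes of the 3 lists, a point per gene, red where called higher, blue where called lower and grey where neither. Black bars are list medians (-2.27, -3.62 with gate genes included, and 2.17) and the dotted line is the median of all genes at -0.86.

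Outside the B lineage, Pax5 and Ebf1 were found in few cells, and much of their signal sat in cells that carried Cd79 too. Foxp3-positive T cells were at 33.2 CPM of Pax5 and 199 CPM of Ebf1, but without their 6 cells with at least 2 Cd79 UMIs they were at 0 and 1.65 CPM. Monocytes went from 35.7 to 0.186 CPM of Ebf1 and from 5.83 to 0.360 CPM of Pax5 without their 193 such cells, and T cells from 43.8 to 0.694 CPM of Ebf1 without 17. Fibroblasts kept Ebf1 at 1272 CPM without their 1 such cell. A sort for CD45 should have removed these 129 cells, of which 92.2% held the collagen gene Col1a1, a marker that defined the class. Ebf1 was held by 89.9%, and by 80.2% after thinning. The 4 libraries with at least 10 fibroblasts ranged from 353 to 1645 CPM. Stem and progenitor cells kept Ebf1 at 29.2 CPM, in 4.49% of the cells without Cd79.

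Bach2 was shared widely outside the B lineage, and not with lymphocytes alone. It was at 1419 CPM in type 2 innate lymphoid cells, 1326 CPM in NK cells, 941 CPM in T cells and 508 CPM in Foxp3-positive T cells. Plasmacytoid dendritic cells were at 481 CPM, mast cells at 393 CPM, type 2 dendritic cells at 389 CPM and migratory dendritic cells at 289 CPM. Type 1 dendritic cells were at 168 CPM, neutrophils at 32.2 CPM and granulocyte precursors at 9.90 CPM. The libraries of type 2 innate lymphoid cells (958 to 1893 CPM), NK cells (747 to 1885 CPM) and T cells (640 to 1218 CPM) overlapped, and in each of these classes all libraries were below the lowest pro-B library. Without cells carrying Cd79, Foxp3-positive T cells were at 388 CPM. The libraries of T, NK and type 2 innate lymphoid cells all lay above those of antibody-secreting cells, while those of Foxp3-positive T cells (221 to 929 CPM) overlapped with them.

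Irf4 was highest outside the lineage in type 2 dendritic cells, whose development is known to need it, at 126 CPM, with libraries at 73.4 to 178 CPM. Migratory dendritic cells followed at 71.3 CPM, Foxp3-positive T cells at 70.3 CPM, plasmacytoid dendritic cells at 59.0 CPM and T cells at 55.4 CPM, and the libraries of these neighbours overlapped. Type 1 dendritic cells were at 3.29 CPM and NK cells at 5.28 CPM, and granulocyte precursors, at 0.210 CPM, were lowest.

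Outside the lineage, Prdm1 was highest in a T cell class. Foxp3-positive T cells, in which Blimp-1 is known to mark effector cells, were at 64.2 CPM (51.3 to 79.4), and the antibody-secreting gate was at 60.2 CPM (46.8 to 76.4), with overlapping limits. The lowest, median and highest library of the Foxp3-positive T cells were at 51.8, 63.4 and 127 CPM, and 33.1% of the cells held Prdm1, or 17.4% after thinning. The 2 antibody-secreting libraries with at least 10 cells, at 41.1 and 45.6 CPM, lay below that range, while UMIs per cell were 0.625 in Foxp3-positive T cells against 1.84, so the order depended on the scale. NK cells were at 28.7 CPM, monocytes at 23.9 CPM, macrophages at 22.6 CPM and the remaining T cells at 11.96 CPM.

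After antibody-secreting cells, Xbp1 was highest in plasmacytoid dendritic cells, which secrete interferon, at 259 CPM, with libraries at 221 to 320 CPM that lay between those of monocytes (142 to 176 CPM) and those of antibody-secreting cells. Monocytes were at 156 CPM, basophils at 141 CPM, granulocyte precursors at 138 CPM and macrophages at 116 CPM, and the lowest level was in cycling pre-B cells at 24.4 CPM.

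**Figure D5:**
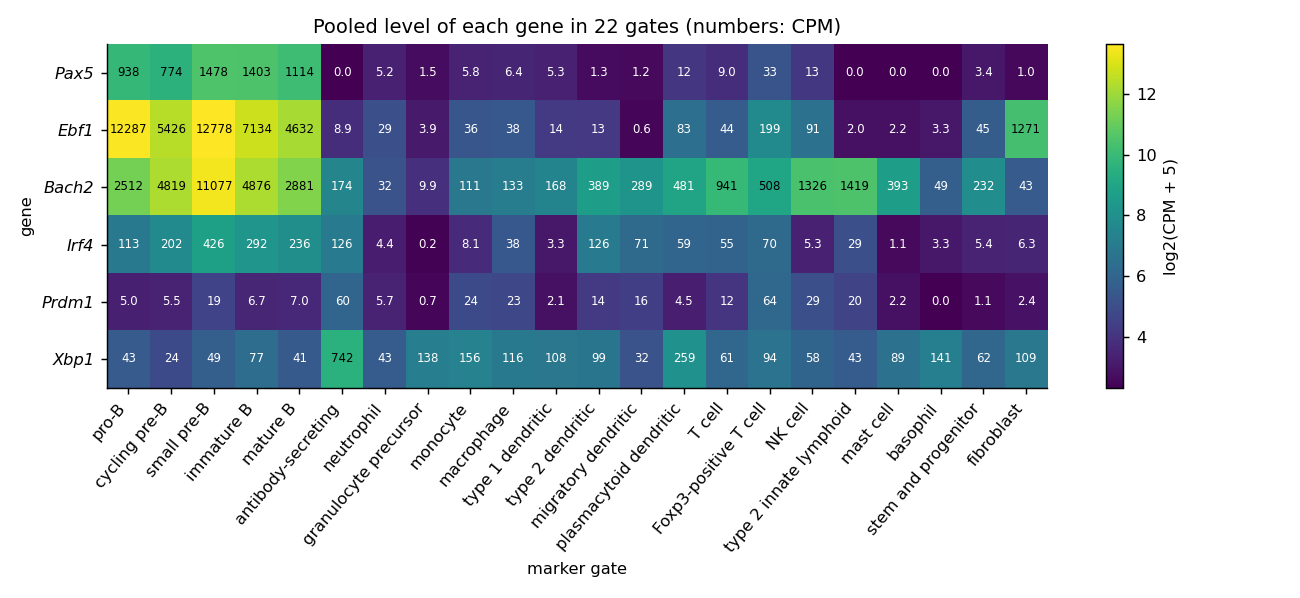
Pooled level of each gene in 6 B lineage stages and 16 other classes, coloured by log2(CPM + 5), with the CPM printed in each cell. Pax5 is over 100 CPM in the 5 stages before antibody secretion and at most 33.2 CPM in the other gates, Ebf1 is also at 1271 CPM in fibroblasts, and Xbp1 peaks at 742 CPM in antibody-secreting cells.

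Over the 22 gates, likeness was measured as Pearson's r of log2(CPM + 5), a description over gates that share libraries and depth. Among the 5 genes most like Pax5 were Chst3 (r = 0.98), Vpreb3 (0.97), Gm12462 (0.97) and Cecr2 (0.97), and those most like Ebf1 were Akap12 (0.96), Hmgcll1 (0.94), Dcbld1 (0.93), Mturn (0.92) and Gfra1 (0.92). Among the 6 factors, Pax5 was most like Ebf1 (0.92). Bach2 was closest to Cnot2 (0.92), Dcp1a (0.92), Pou2f1 (0.92), Dmtf1 (0.90) and Arid1b (0.90), and Irf4 to Dhx57 (0.87), St6gal1 (0.87), Glcci1 (0.84), Blk (0.83) and Arl5c (0.83). Xbp1 was closest to Slc39a7 (0.87), Spcs1 (0.83), Vimp (0.83), Sec61a1 (0.82) and Srpr (0.82). Prdm1 had Ube2j1 (0.85), B2m (0.78), Zbtb32 (0.70), Serpinc1 (0.68) and H2-T22 (0.67), and its r with Xbp1 was 0.19.

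The factors were also summed over the whole B lineage of each library. Pax5 was at 913 to 1154 CPM, Ebf1 at 6615 to 8533 CPM and Bach2 at 4399 to 5827 CPM in the 6 libraries. Irf4 was at 197 to 303 CPM, Prdm1 at 6.43 to 12.8 CPM and Xbp1 at 44.9 to 83.6 CPM. The mix of stages differed between the libraries as given above, and its part in these ranges was not tested.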

How the data were processed

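Single-cell RNA-seq of CD45+ cells from digested joints, which the paper calls synovial, was analysed from 6 samples. The authors aligned reads to mm10 with Cell Ranger (version 7 per the labels), removed ambient RNA with SoupX and doublets with DoubletFinder, filtered cells with Seurat, and deposited UMI counts that were not scaled. Whether reads in introns were counted is not given in the sources used here. The paper does not say whether the deposited counts are those before or after the removal of ambient RNA. The exact limits take the counts as they stand. Doublets were not called again. Cells were placed in gates by marker genes, in the order antibody-secreting, pro-B, cycling pre-B, small pre-B, immature B, mature B and other Cd79-positive, and then by the class with most of its 5 markers (at least 3, no tie). Levels are pooled UMIs per 1000000 (CPM) with exact Poisson 95% limits, and shares have exact binomial limits. A count of 0 was set to 3 UMIs over the gate for a ratio, and no ratio was given where that exceeded the other gate. The rule for named genes covered the 6 genes, the 5 genes most like each, and called members of 3 lists. These members were limited to those of the largest fold in each list and contrast. Bcl6 changed less than the median of its list from mature B to antibody-secreting cells, and Ern1 about as much as that of its list. The size of fold at this step thus does not account for naming them. Atf4, Ddit3, Pou2af1, Igll1 and Vpreb1 were named after their values were seen. A gene that the rule names is not reported here. The 6 genes, the gates and the lists were chosen with earlier results of these data known. No test was run, because libraries of unknown treatment are not replicates. Scripts ran in Python 3.11.15 with scipy 1.17.1 for limits, pandas 2.3.3 and numpy 2.4.6 for tables, and matplotlib 3.10.9 for plots.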

Additional observations from a re-analysis of the deposited data

How the results depend on the processing

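The log2 ratios of antibody-secreting over mature B cells kept their sign under every alternative tried, except that Irf4, which was not called, turned positive as UMIs per cell. Of mature B over pro-B cells, Ebf1 and Irf4 kept their sign, whereas Pax5 and Bach2, which were not called, turned negative as UMIs per cell, and Prdm1 and Xbp1, which lay within counting error, changed sign in 2 and 3 alternatives. UMIs per cell and the antibody-secreting gate with no limit on other lineages were chosen after seeing the data, as was the mean over all draws of a thinned share.

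From mature B to antibody-secreting cells, the log2 ratio as UMIs per cell was -6.42 for Pax5, -6.74 for Ebf1, -1.76 for Bach2, 1.38 for Irf4, 5.41 for Prdm1 and 6.48 for Xbp1. With immunoglobulin genes out of the denominator it was -3.39 for Bach2, -0.25 for Irf4, 3.77 for Prdm1 and 4.84 for Xbp1, and as the median over libraries -4.73, -1.29 and 2.46 for Bach2, Irf4 and Prdm1. In cells with no gene of another lineage and under 0.5% of S100a8 and S100a9 it was -7.84, -3.47 and -0.42 for Ebf1, Bach2 and Irf4, and in the 49 cells found with no limit on other lineages -6.03, -5.04 and -3.29 for Pax5, Ebf1 and Bach2. With at least 2 UMIs of each gate gene it was 3.70 for Prdm1 and 4.40 for Xbp1. Leaving out each library in turn gave -8.72 to -7.90 for Pax5, -9.86 to -8.36 for Ebf1, -4.56 to -3.60 for Bach2, -1.27 to -0.59 for Irf4, 2.68 to 3.38 for Prdm1 and 4.10 to 4.25 for Xbp1.

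From pro-B to mature B cells, the log2 ratio as UMIs per cell was -0.58 for Pax5, -2.24 for Ebf1, -0.63 for Bach2, 0.23 for Irf4, -0.34 for Prdm1 and -0.89 for Xbp1. With at least 2 UMIs of each gate gene it was 0.19, -1.45, 0.34 and 1.22 for Pax5, Ebf1, Bach2 and Irf4, and as the median over libraries -1.38, 0.25 and 1.57 for Ebf1, Bach2 and Irf4. With each cell given the same weight it was -1.58 for Ebf1 and 0.12 for Bach2, and without genes of other lineages -1.37 for Ebf1. Leaving out each library in turn gave 0.19 to 0.29 for Pax5, -1.44 to -1.37 for Ebf1, 0.13 to 0.31 for Bach2 and 1.01 to 1.34 for Irf4. The cause of these shifts was not tested. In the draw, thinning to 2000 UMIs moved 13 of 18 shares beyond their exact limits, among them Prdm1 in antibody-secreting cells, from 18.9% to 0%. As the mean over all draws this Prdm1 share went from 14.3% to 10.04%, which stayed within those limits.

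A limit is the antibody-secreting gate, with 37 cells of which 31 came from 2 libraries. Shares depend on depth and cover RNA in a cell's count, not protein. No paired analysis was possible because the labels do not tie the barcode numbers to the samples.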
